A study of Mus musculus with 12 samples.

Results

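The replication-dependent histone genes were taken as all genes of the deposited table whose symbol starts with Hist1h, Hist2h, Hist3h or Hist4h, or has the form of the newer names of the same genes. This gave 67 of the 21004 genes in the table, 6 of the linker histone class H1, 18 of H2A, 18 of H2B, 12 of H3 and 13 of H4. They lie in 4 clusters, Hist1 on chromosome 13 with 54 genes, Hist2 on chromosome 3 with 10, Hist3 on chromosome 11 with 2 and Hist4 on chromosome 6 with 1. RNA was measured in whole spleens of ICR mice, an outbred strain, at 8 weeks of age, with 3 libraries in each of 4 groups. The groups were busulfan with L.J. at 10 mg/kg, busulfan alone, L.J. at 10 mg/kg alone, and control. Busulfan is an alkylating drug that crosslinks DNA and depletes blood-forming cells. L.J. is not defined in the labels, which also give no dose or time for busulfan and no vehicle for the controls. By its title, the series asked whether L.J. counters the damage that busulfan does to the spleen. Nothing in the labels tells whether each library is 1 mouse, so p-values measure only the spread between libraries, which may be technical.

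Replication-dependent histones package newly copied DNA. Their genes are transcribed in S phase, and their mRNAs are the main ones in animals that end in a stem-loop instead of a poly(A) tail. The stem-loop binding protein, Slbp, holds this structure while the U7 small nuclear RNA complex directs the cut just after it. In the spleen such transcripts mark dividing precursors of red cells and granulocytes and dividing lymphocytes. In several tissues a subset of these genes also makes poly(A)-tailed mRNA from a site further downstream, which libraries selected for poly(A) would retain. The labels name no step of poly(A) selection or rRNA removal. None of 6 RNAs that lack a poly(A) tail, among them Rmrp and Rpph1, had a row in the table, so whether such RNA was retained cannot be read from them.

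A stem-loop of 16 bases with paired arms of 6 bases was found after the stop codon in the single-exon GENCODE M21 transcripts (GRCm38, the assembly of mm10) of 43 genes, between 21 and 58 bases after the stop. The arms divided the genes by class. All 32 stem-loops of H1, H2A, H2B and H3 genes began with GGCTCT and none of the 11 of H4 genes did, which began with GGCCCT or GGTCCT. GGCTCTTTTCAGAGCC, the most common sequence, was shared by 25 genes, and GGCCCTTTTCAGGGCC by 7 H4 genes. The following sites are shown because the results turn on these genes, with the stem-loop in capitals between the neighbouring bases of the transcript.
Hist1h2ap: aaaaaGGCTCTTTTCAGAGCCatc
Hist1h1c: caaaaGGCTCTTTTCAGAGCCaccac
Hist3h2a: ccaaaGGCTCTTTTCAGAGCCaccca
Hist4h4: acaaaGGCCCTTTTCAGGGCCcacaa
Hist1h4i: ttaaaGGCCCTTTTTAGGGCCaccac
The stem-loops lie at chr13:21833029-21833044 on the minus strand for Hist1h2ap, chr13:23739512-23739527 on the plus strand for Hist1h1c, and chr11:58955172-58955187 on the plus strand for Hist3h2a. Those of Hist4h4 and Hist1h4i lie at chr6:136803998-136804013 and chr13:22040966-22040981, both on the minus strand. The H1 gene and both H2A genes carry one sequence, and the H4 genes differ from it in their arms.

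The annotations disagree on where the transcripts end. RefSeq ends 41 of the 43 genes within 10 bases after the stem-loop, whereas in GENCODE 21 of the 43 run at least 100 bases past it, up to 4884 bases. Hist1h1c ends 4 bases past its stem-loop in RefSeq and 840 in GENCODE, and Hist3h2a 5 and 1643. Hist1h2ap ends within 5 bases in both. The annotation used for the deposited values is not given in the sources used here, so an FPKM level, which is divided by transcript length, depends on that choice for these genes.

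Promoter windows of 250 bases before to 50 after the annotated start were at hand in RefSeq (GRCm38.p6) for 62 of the genes. The CCAAT box was searched as CCAAT on both strands. It was present in all 50 windows of H1, H2A, H2B and H3 genes but in 3 of 12 of H4, against 41.1% of the windows of 27025 genes. The TATA box, searched as TATAAA on both strands, was present in 35 of 62 histone windows (56.5%) against 15.7% of all. The octamer ATTTGCAT, also searched on both strands, was present in 7 of 18 H2A and 7 of 16 H2B windows and in none of H1, H3 or H4, against 1.97% of all. These counts are of matches to the letters anywhere in the window, with no test of their distance from the start. Windows of divergent H2A and H2B neighbours can overlap, so one site may be counted for both genes. The promoters of the most abundant core and linker histone genes are shown with CCAAT boxes of either strand in capitals.
Hist1h2ap: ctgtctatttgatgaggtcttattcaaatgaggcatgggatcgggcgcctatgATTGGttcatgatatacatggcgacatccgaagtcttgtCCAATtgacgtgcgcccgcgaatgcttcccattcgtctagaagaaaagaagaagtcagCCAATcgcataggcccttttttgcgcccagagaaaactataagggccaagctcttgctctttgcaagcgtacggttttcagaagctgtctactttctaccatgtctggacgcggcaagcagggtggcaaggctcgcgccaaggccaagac
Hist1h1c: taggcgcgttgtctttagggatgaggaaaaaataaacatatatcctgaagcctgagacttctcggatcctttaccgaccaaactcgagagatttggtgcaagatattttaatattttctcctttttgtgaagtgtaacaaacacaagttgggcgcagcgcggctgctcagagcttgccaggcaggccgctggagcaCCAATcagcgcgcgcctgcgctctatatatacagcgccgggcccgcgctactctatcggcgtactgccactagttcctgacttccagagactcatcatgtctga
The first is chr13:21833426-21833725 on the minus strand with 3 CCAAT boxes, and the second is chr13:23738557-23738856 on the plus strand with 1. A run of 200 bases from the Hist1h2ap window was also found unbroken in that of Hist1h2ao.

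Near-identical sequence limits what can be said of single genes. Over 50% of the 50-base runs in the transcript occurred in other genes for 35 of the 67 genes, and the median was 55.0%. It was 93.1% for Hist1h2ap and 93.5% for Hist1h2ao, which share most with each other, 90.1% for Hist1h2ai and 100% for Hist2h2aa1. For Hist3h2a it was 31.5%, and 660 of its 2097 runs occurred in Trim17, which is no histone gene. For Hist1h2bc it was 30.6%, with runs found in 220 other genes. The share was low for Hist1h1c with 8.5%, for Hist4h4 with 8.1% and for Hist1h4d with 10.2%, and 0% for Hist2h2be. How the deposited values divided reads between such copies is not given in the sources used here, so values of the H2A copies are uncertain.

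Some libraries stood apart before any histone gene was considered. The spleen markers Cd79a, Cd3e and Spic were above 0 in every library, with Cd79a between 649.2 and 1883.9 FPKM. The 25 pancreatic acinar genes, enzymes of the gland that touches the spleen, summed to between 18.48 and 225.84 FPKM with busulfan and L.J., 231.05 and 61230.38 with busulfan, 110.22 and 6894.63 with L.J., and 15.84 and 16.05 in controls. The highest sums were in busulfan replicates 1 and 2 and L.J. replicate 3, and Amy2a5 was listed at 0 in control replicates 1 and 2. The 12 granulocyte precursor genes summed to 131.48 to 420.51 FPKM with busulfan and L.J., 486.18 to 10996.33 with busulfan, 368.62 to 661.11 with L.J. and 184.84 to 331.89 in controls. The 15 hepatocyte genes summed to 13.58 to 18.90 FPKM with busulfan and L.J., 10.0 to 17.51 with busulfan, 21.37 to 25.96 with L.J. and 36.15 to 131.54 in controls, so that every treated library lay below every control. Of the tested markers, 0 of 12 B cell genes and 1 of 20 erythroid genes were above control with busulfan, with median log2 differences of -0.69 and -0.59. The 8 testis genes summed to 310.56 FPKM in control replicate 3 and to at most 18.86 in any other library. Results are therefore also given without these libraries, and the part that these tissues or cells played in any result was not tested. In whole tissue, fewer cells of a type and less RNA per cell cannot be told apart.

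Most replication-dependent histone genes were weakly measured. Values are in FPKM, which divides the fragments of a gene by its transcript length and by the fragments mapped in that library. Over all 12 libraries 20 of the 67 genes averaged at least 1 FPKM, 4 averaged at least 10, and 32 stayed below 0.5. Hist1h4n was listed at 0 throughout, but 85.6% of its 50-base runs occur in other genes, most of them in Hist1h4m. In at least 1 library 45 genes were listed at 0, and 22 were above 0 in all. Together they made up between 0.0428% and 0.1075% of the FPKM sum of a library. Between 11 and 32 of the genes reached 1 FPKM in a library, fewest in control replicate 3 and most in busulfan replicate 1. The depth of the libraries is unknown, so a value of 0 sets no upper limit.

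The plot of the 12 most abundant genes shows how far one gene exceeded the rest. Hist1h2ap, a core histone H2A gene at chr13:21833024-21833475 (now H2ac24), averaged 264.8 FPKM, and with Hist1h2ao it held between 63.81% and 83.71% of the FPKM of all 67 genes. The next were Hist1h2ao with 38.70 FPKM, the linker histone Hist1h1c with 20.77, and the H2B gene Hist1h2bc with 11.62. No other gene averaged 10 FPKM.

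**Figure D1:**
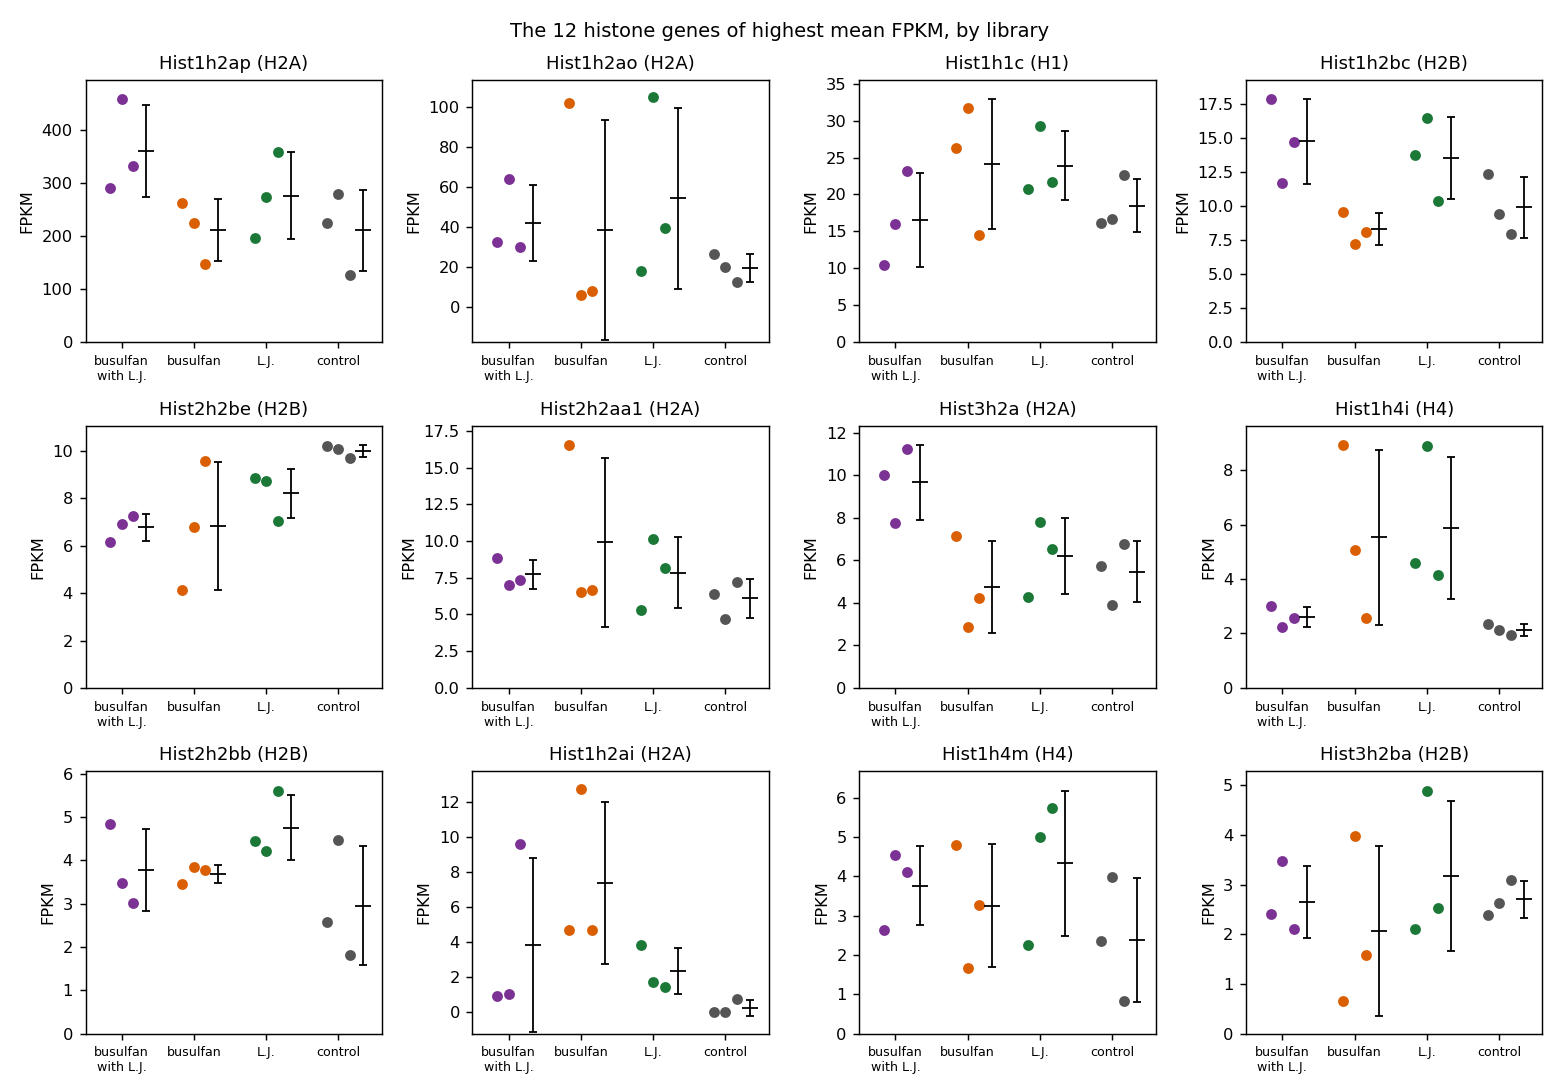
FPKM of the 12 replication-dependent histone genes of highest mean, in the 3 libraries of each group (points, replicates 1 to 3 from left to right), with the mean and SD of the group as a bar. Hist1h2ap reached 458.13 FPKM in busulfan with L.J. replicate 2, and Hist1h4i lay between 1.93 and 2.34 FPKM in all 3 controls.

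Among H2A genes, which form the core dimer with H2B, Hist1h2ap had 291.54, 458.13 and 332.83 FPKM with busulfan and L.J., 262.79, 225.38 and 147.08 with busulfan, 196.20, 273.48 and 359.19 with L.J., and 224.14, 279.95 and 127.47 in controls. The 3 libraries with both treatments lay above all of busulfan alone and all controls, and overlapped those of L.J. alone. Hist1h2ao had 32.31, 64.10 and 30.01 FPKM with busulfan and L.J., 102.31, 6.11 and 7.73 with busulfan, 17.92, 105.46 and 39.72 with L.J., and 26.59, 19.75 and 12.40 in controls. Its share of the FPKM of the pair ran from 2.64% in busulfan replicate 2 to 28.02% in busulfan replicate 1, so both extremes of the split between these near-identical copies lay within 1 group.

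Hist3h2a (now H2aw), a single H2A gene in the small cluster on chromosome 11, had 10.02, 7.76 and 11.21 FPKM with busulfan and L.J., 7.14, 2.88 and 4.22 with busulfan, 4.28, 7.79 and 6.53 with L.J., and 5.75, 3.90 and 6.74 in controls. As for Hist1h2ap, the group with both treatments lay above busulfan alone and above control. Hist1h2ai, another H2A gene of the Hist1 cluster, had 0.91, 1.04 and 9.59 FPKM with busulfan and L.J., 4.69, 12.73 and 4.72 with busulfan, 3.87, 1.75 and 1.46 with L.J., and 0, 0 and 0.75 in controls. Controls were lowest and did not overlap any other group. Hist2h2aa1 stood at 16.54 FPKM in busulfan replicate 1 and between 4.66 and 10.11 in the other libraries, in overlapping groups. Hist1h2ad was listed at 0 in all libraries but busulfan replicates 1 and 2, with 1.01 and 1.24 FPKM. These libraries have the highest granulocyte precursor sums and are also among those of highest acinar sums. Hist1h2ad shares 67.1% of its 50-base runs with other genes, and the source of its values was not tested.

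Among H2B genes, Hist1h2bc had 17.85, 11.66 and 14.73 FPKM with busulfan and L.J., 9.59, 7.24 and 8.09 with busulfan, 13.78, 16.43 and 10.37 with L.J., and 12.32, 9.45 and 7.95 in controls. Busulfan alone was lowest and did not overlap either group given L.J. Hist2h2be, whose transcript shared no 50-base run with another gene, had 6.16, 6.92 and 7.27 FPKM with busulfan and L.J., 4.14, 6.80 and 9.56 with busulfan, 8.86, 8.72 and 7.02 with L.J., and 10.19, 10.08 and 9.71 in controls. It was the one of the 12 most abundant genes with all controls above every library of each other group. Hist2h2bb ranged from 1.81 to 5.61 FPKM and Hist3h2ba from 0.66 to 4.89, and their groups overlapped in each of the 5 pairwise contrasts.

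Linker histones of class H1 bind the DNA between nucleosomes. Hist1h1c (now H1f2) had 10.51, 15.94 and 23.22 FPKM with busulfan and L.J., 26.23, 31.66 and 14.45 with busulfan, 20.79, 29.27 and 21.68 with L.J., and 16.17, 16.65 and 22.62 in controls, and all groups overlapped. Hist1h1e averaged 1.42 ± 0.31 FPKM with busulfan and L.J., 2.78 ± 1.26 with busulfan, 1.83 ± 0.52 with L.J. and 1.69 ± 0.46 in controls (SD, n = 3 each). Hist1h1d and Hist1h1b averaged 1.07 and 0.98 FPKM over all libraries and Hist1h1a 0.32. Hist1h1t, the linker histone of male germ cells, was listed at 0 in 11 libraries and at 0.08 FPKM in busulfan with L.J. replicate 2. It was 0 in control replicate 3, as were the testis genes Hist1h2ba and Hist1h2aa, although the sperm protamine Prm2 stood at 94.87 FPKM there.

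H4, with H3, forms the core tetramer. Hist1h4i (now H4c9) had 2.99, 2.25 and 2.56 FPKM with busulfan and L.J., 8.92, 5.08 and 2.57 with busulfan, 4.57, 8.87 and 4.15 with L.J., and 2.34, 2.12 and 1.93 in controls. Each treatment alone lay above control, and both together lay below L.J. alone. Hist1h4m ranged from 0.84 to 5.74 FPKM and Hist4h4 from 0.85 to 4.50, with the lowest value of each in control replicate 3. Hist1h4d had 2.44, 1.11 and 1.79 FPKM with busulfan and L.J., 2.15, 0.53 and 1.75 with busulfan, 0.46, 1.11 and 1.06 with L.J., and 0.48, 0.45 and 0.63 in controls. Hist1h4h had 0.42, 0 and 0.77 FPKM with busulfan and L.J., 0.54, 0.28 and 0.35 with busulfan, 0.81, 0.97 and 1.52 with L.J., and 0.43, 0.19 and 0.28 in controls, highest in L.J. alone. H3 genes were lowest of all classes, with a highest mean of 1.06 FPKM for Hist1h3i, which shares 87.6% of its 50-base runs.

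Summed over all 67 genes, FPKM averaged 505.9 ± 107.1 with busulfan and L.J., 363.1 ± 131.7 with busulfan, 443.3 ± 116.3 with L.J. and 309.6 ± 82.26 in controls (SD, n = 3 each), and the pair Hist1h2ap and Hist1h2ao set most of it. Without the pair, the other 65 genes summed to 90.79, 101.64 and 116.33 FPKM with busulfan and L.J., 135.93, 118.18 and 83.82 with busulfan, 95.07, 137.08 and 105.84 with L.J., and 78.98, 80.31 and 79.33 in controls. All 9 treated libraries lay above all 3 controls, which differed by little more than 1 FPKM. The acinar sums divided the same libraries in the same direction, with at least 18.48 FPKM in treated libraries and at most 16.05 in controls. The hepatocyte sums divided them in the opposite direction, and the part of either tissue in this was not tested. In the sum of the 65 genes the lowest treated library was busulfan replicate 3. H2B summed to 32.76 ± 1.15 FPKM with busulfan and L.J., 28.73 ± 3.19 with busulfan, 36.73 ± 7.02 with L.J. and 28.88 ± 2.88 in controls (SD, n = 3 each), and H1 overlapped between all groups. The H2A genes other than the pair summed to 28.92 ± 7.13 FPKM with busulfan and L.J., 31.80 ± 9.27 with busulfan, 22.79 ± 4.23 with L.J. and 15.79 ± 3.41 in controls (SD, n = 3 each). No treated library of these was below a control.

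**Figure D2:**
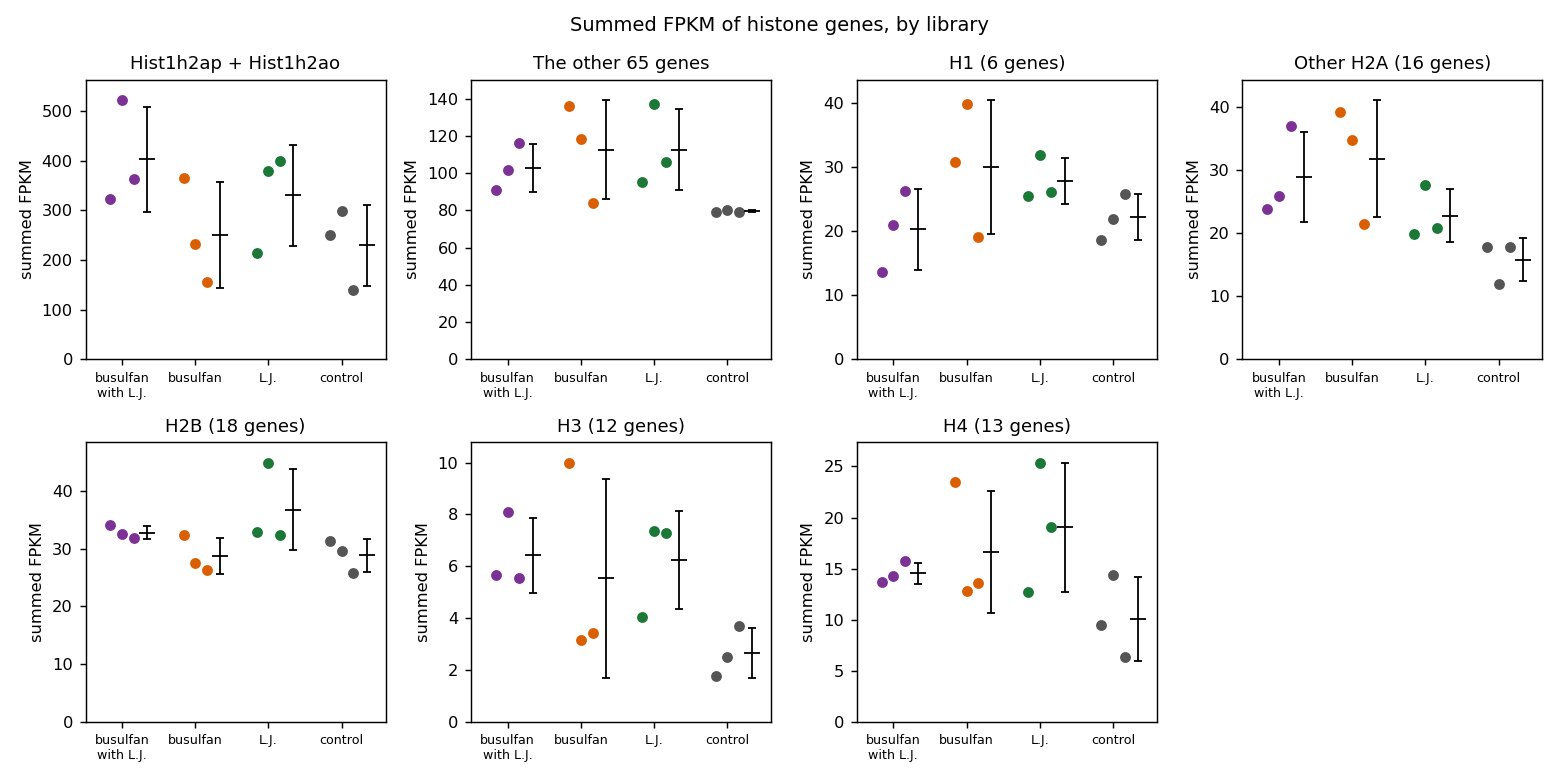
Summed FPKM of histone genes by class in the 3 libraries of each group (points), with the mean and SD of the group as a bar. The 65 genes besides Hist1h2ap and Hist1h2ao lie between 78.98 and 80.31 FPKM in controls and between 83.82 and 137.08 FPKM in the other groups.

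Per-gene tests used limma on log2(FPKM + 1) across the 13138 genes that averaged at least 1 FPKM in at least 1 group, with Benjamini-Hochberg adjustment at 0.05. Of the 67 histone genes, 26 entered the test and 41 did not. No histone gene passed in any of the 6 contrasts, and none passed without control replicate 3. None passed without busulfan replicates 1 and 2 and L.J. replicate 3 either, but this leaves 1 busulfan library, which is assumed to vary like the other groups, so the contrasts with busulfan alone say little about stability. A gene that enters through its highest group is more likely to differ, so counts over the 26 genes are given beside the background only. Directions were counted over all 67 genes in a fit without the filter. Its scale, a difference of mean log2(FPKM + 1), understates differences of weakly expressed genes. A gene with a difference of 0 counts as not higher, so the share not higher is not the share lower. Of the 13138 tested genes, 5859 were higher for busulfan minus control, 7093 for L.J. minus control and 7371 for busulfan with L.J. minus control. Higher were also 7476 for busulfan with L.J. minus busulfan, 6726 for busulfan with L.J. minus L.J. and 7010 for the interaction.

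For busulfan minus control, 0 of 26 histone genes passed, against 4 of 13138 genes (0.0304%). At an unadjusted p under 0.05 there were 6 (23.1%), against 12.2% of all genes, and 3 had groups that did not overlap, against 12.9%. Hist1h2ai differed by 2.67 ± 0.61 on the log2 scale (SE, limma adjusted p = 0.167), Hist1h4i 0.94 ± 0.33 (SE, limma adjusted p = 0.299), and Hist2h2be -0.55 ± 0.21 (SE, limma adjusted p = 0.331). Hist1h4d had 0.64 ± 0.27 (SE, limma adjusted p = 0.380) with overlapping groups. Over all 67 genes, 48 (71.6%) were higher with busulfan, with a median difference of 0.22, against 37.5% and -0.01 for the whole table. This depended on the libraries that stood apart. Without busulfan replicates 1 and 2 and L.J. replicate 3, which leaves 1 busulfan library, 30 of 67 were higher (44.8%, against 34.2% of the whole table), and without control replicate 3, 43 were. Without busulfan replicate 3, 5 histone genes passed, namely Hist1h2ai, Hist1h3i, Hist1h4i and Hist1h2ad as higher and Hist2h2be as lower. Calls were then more frequent across the whole table, at 829 of 13214 genes (6.27%), against 5 of 31 histone genes tested.

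For L.J. minus control, 0 of 26 passed, against 4 of 13138 genes (0.0304%). At an unadjusted p under 0.05 there were 6, against 8.91% of all genes, and 6 had groups that did not overlap, against 18.8%. Hist1h4i had a log2 difference of 1.07 ± 0.33, Hist1h4h 0.68 ± 0.22, Hist2h2bb 0.59 ± 0.22 and Hist1h2ai 1.41 ± 0.61 (SE), all with a limma adjusted p of 0.548. Over all 67 genes, 47 (70.1%) were higher with L.J., with a median of 0.23, against 43.0% and 0 for the whole table. It was again 47 without the libraries of high acinar level, and 49 without control replicate 3. This contrast and the one of busulfan share their controls, so their directions are not independent.

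For busulfan with L.J. minus busulfan, the comparison the title of the series speaks of, 0 of 26 passed, against 218 of 13138 genes (1.66%). At an unadjusted p under 0.05 there were 6 (23.1%), against 23.2% of all genes, and 4 had groups that did not overlap, against 23.1%. Both shares of histone genes were thus at or below those of all genes. Hist1h2bc differed by 0.75 ± 0.20 on the log2 scale (SE, limma adjusted p = 0.0719) and Hist3h2a 0.95 ± 0.28 (SE, limma adjusted p = 0.0895). Hist1h2ap had 0.78 ± 0.32 (SE, limma adjusted p = 0.186), and Hist1h1e -0.59 ± 0.24 (SE, limma adjusted p = 0.182). Over all 67 genes 28 (41.8%) were higher with both, with a median of -0.02, against 46.4% and 0 for the whole table, and 49 (73.1%, against 50.9% of the whole table) were higher without the libraries of high acinar level, where busulfan replicate 3 alone stands for its group. Hist1h2bc and Hist3h2a passed when library sums were taken without acinar and globin genes, at adjusted p of 0.0369 and 0.0461. They also passed with library weights, together with Hist1h1e as lower, whereas without busulfan replicate 1 Hist3h2a and Hist1h1e passed, and without busulfan replicate 3 Hist1h4i and Hist1h2ad passed as lower. In these 4 fits the share of all genes called was 6.04%, 15.1%, 5.77% and 10.4%, against 2, 3, 2 and 2 histone genes of 26, 26, 26 and 31 tested.

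For busulfan with L.J. minus L.J., 0 of 26 passed, against 0 of 13138 genes (0.0%). At an unadjusted p under 0.05 there were 2, against 5.61% of all genes, and 3 had groups that did not overlap, against 15.7%. Hist1h4h had a log2 difference of -0.61 ± 0.22, Hist1h4i -0.87 ± 0.33 (SE, limma adjusted p = 0.867 for both), Hist2h3c2 -0.65 ± 0.30 (SE, limma adjusted p = 0.888) and Hist3h2a 0.58 ± 0.28 (SE, limma adjusted p = 0.897). Over all 67 genes 30 (44.8%) were higher, with a median of -0.02, against 42.8% and 0 for the whole table.

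For busulfan with L.J. minus control, 0 of 26 passed, against 8 of 13138 genes (0.0609%). At an unadjusted p under 0.05 there were 7 (26.9%), against 19.0% of all genes, and 7 had groups that did not overlap, against 35.1%. Hist1h4d differed by 0.84 ± 0.27 on the log2 scale (SE, limma adjusted p = 0.188), Hist1h2bc 0.53 ± 0.20 (SE, limma adjusted p = 0.220), Hist3h2a 0.73 ± 0.28 (SE, limma adjusted p = 0.222) and Hist1h2ap 0.82 ± 0.32 (SE, limma adjusted p = 0.231). Over all 67 genes 46 (68.7%) were higher with both treatments, with a median of 0.20, against 43.6% and 0 for the whole table. By class, 16 of 18 H2A genes were higher but 2 of 6 H1 genes, against 43.6% of the whole table. Many H2A copies share sequence and may share reads, so their directions need not be independent. Without control replicate 3, 45 of 67 were higher. With library weights Hist3h2a and Hist1h4d passed as higher and Hist2h2be as lower, beside 11.3% of all genes, and with only the groups compared Hist1h4d and Hist2h2be did, beside 5.81%.

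The interaction asks whether the difference made by L.J. was the same with and without busulfan, and is the one with busulfan minus the one without. No histone gene passed, against 0 of 13138 genes (0.0%), and 5 had an unadjusted p under 0.05, against 11.5% of all genes. Hist1h4i had -1.81 ± 0.46 (SE, limma adjusted p = 0.213), Hist1h2ai -2.56 ± 0.86 (SE, limma adjusted p = 0.304), Hist1h4h -0.71 ± 0.31 (SE, limma adjusted p = 0.415) and Hist2h3c2 -0.94 ± 0.42 (SE, limma adjusted p = 0.420). Of all 67 genes 21 (31.3%) were above 0, with a median of -0.29, against 50.6% and 0.00 for the whole table. Without the libraries of high acinar level, with 1 busulfan library, 30 of 67 were above 0, with a median of -0.03. Hist1h4i passed with library weights, beside 1.67% of all genes, and with Hist1h2ad without busulfan replicate 3, beside 3.87%.

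**Figure D3:**
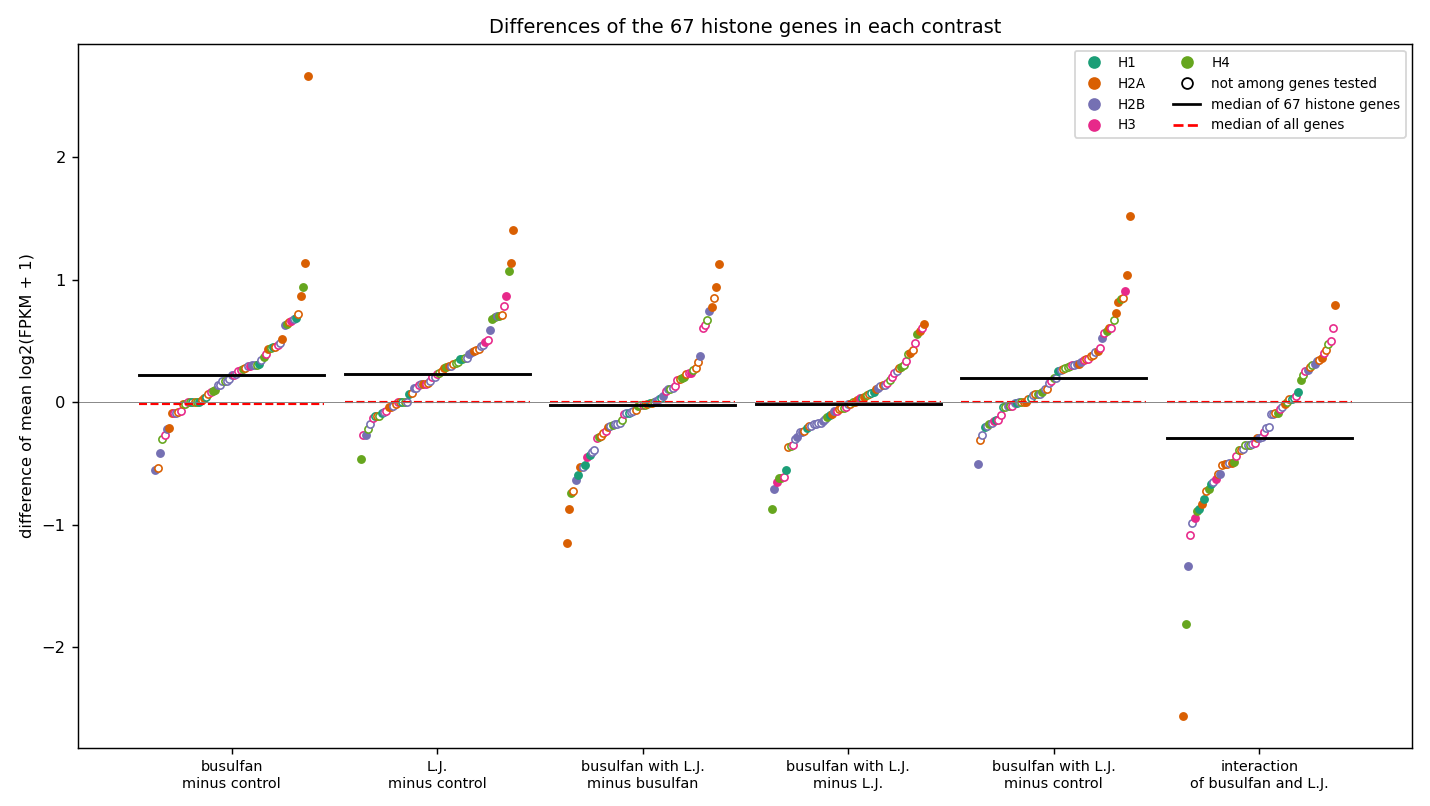
Difference of mean log2(FPKM + 1) of each of the 67 histone genes in the 6 contrasts (points coloured by class and sorted by value, open where the gene did not enter the test), with the median of the 67 genes as a solid line and that of all genes as a dashed line. In busulfan minus control the median of the histone genes is 0.22, and in busulfan with L.J. minus busulfan it is -0.02.

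Annotation features were set against the levels as a description. The 21 genes that GENCODE extends by at least 100 bases past the stem-loop had a median mean of 0.717 FPKM and 9 of them averaged at least 1 FPKM. The 22 genes that end sooner had a median of 0.368 FPKM and 5 of at least 1 FPKM, Hist1h2ap among them. No such stem-loop in a single-exon transcript was found for 24 genes, 12 of which are annotated no further than 20 bases past the stop codon, and their median was 0.624 FPKM. Among them Hist1h2be holds a stem-loop sequence in transcripts of 2 exons, where its place was not determined. The H2B gene Hist1h2bc, whose transcript used here has 2 exons, is among the 24. Summed FPKM of the 21 extended genes was 43.28 ± 7.63 with busulfan and L.J., 49.04 ± 11.6 with busulfan, 52.95 ± 12.16 with L.J. and 38.29 ± 3.49 in controls (SD, n = 3 each), and the ranges overlapped except between L.J. alone and control.

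**Figure D4:**
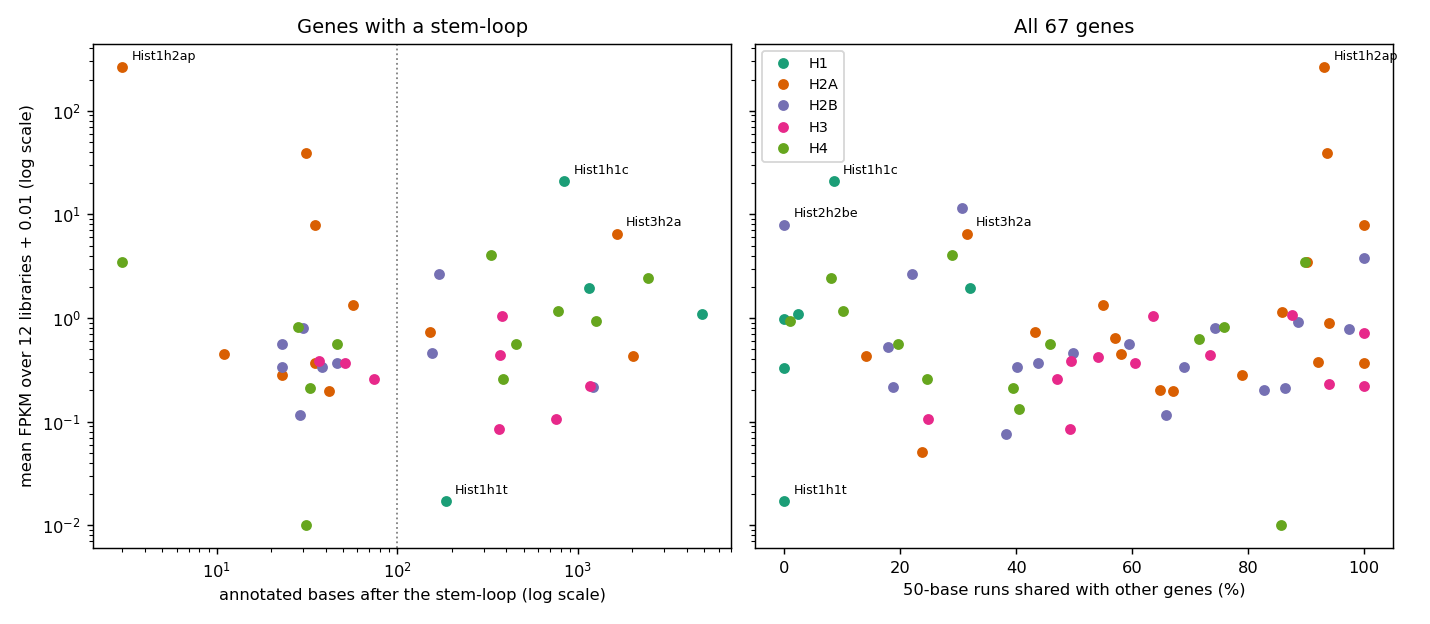
Mean FPKM over 12 libraries (log scale, with 0.01 added) of histone genes against the number of GENCODE bases after the stem-loop (left, 43 genes, log scale, dotted line at 100 bases) and against the percentage of 50-base runs shared with other genes (right, 67 genes). Hist1h2ap lies highest in both, with 93.1% of its runs shared, and Hist2h2be shares 0%.

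Genes of the same pathway gave no calls either, but calls were rare among all genes. Of the 13138 tested genes, between 0 and 218 passed in a contrast, and between 5.61% and 23.2% had an unadjusted p under 0.05. None of 14 genes of histone mRNA processing passed limma's test in any contrast, and between 0 and 4 had an unadjusted p under 0.05. Slbp averaged 79.97 ± 12.32 FPKM with busulfan and L.J., 82.95 ± 21.73 with busulfan, 88.31 ± 7.90 with L.J. and 86.67 ± 20.40 in controls (SD, n = 3 each). Npat, the coactivator of histone gene transcription, averaged between 7.06 and 8.73 FPKM per group. None of 46 DNA replication genes, 22 mitosis genes or 18 histone chaperone genes passed in any contrast, and at most 8, 4 and 4 of them had an unadjusted p under 0.05. The 8 replication and 4 chaperone genes were in busulfan with L.J. minus control, against 19.0% of all genes. The 4 mitosis genes were in busulfan minus control, against 12.2% of all genes. Of the DNA replication genes 40 were above control with busulfan and 40 with L.J., with median log2 differences of 0.12 and 0.20. Control replicate 3 had the lowest DNA replication score of all libraries, the mean log2(FPKM + 1) of the list, at 4.340, against 4.708 and 4.872 in control replicates 1 and 2 and 4.644 to 4.961 in the treated libraries. The histone score over all 67 genes was 0.963, 1.153 and 1.086 with busulfan and L.J., 1.322, 1.044 and 0.893 with busulfan, 0.965, 1.243 and 1.072 with L.J., and 0.842, 0.873 and 0.792 in controls. Every treated library was above every control in the histone score but not in the DNA replication score. The acinar score also divided them so, at 0.441 or more in treated libraries and at most 0.426 in controls.

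Replication-independent variant histones such as H3.3 are made throughout the cell cycle from tailed mRNAs, though the list also holds Cenpa, made in G2, and H2afx, which can make a stem-loop mRNA as well. None of 11 passed limma's test in any contrast. At most 4 had an unadjusted p under 0.05, in busulfan with L.J. minus busulfan, against 23.2% of all genes. H3f3a, which encodes histone H3.3, averaged 987.3 ± 128.4 FPKM with busulfan and L.J., 728.3 ± 26.14 with busulfan, 815.0 ± 121.4 with L.J. and 782.1 ± 176.5 in controls (SD, n = 3 each). Its level per length was thus above that of Hist1h2ap in each group mean. H1f0, the linker histone of non-dividing and differentiating cells, had 17.58, 13.40 and 16.81 FPKM with busulfan and L.J. against 55.77, 43.56 and 21.95 with busulfan, which is -1.20 ± 0.28 on the log2 scale (SE, limma adjusted p = 0.0561). The groups did not overlap, and the highest values were in busulfan replicates 1 and 2. These have the highest granulocyte precursor sums and are also among the libraries of highest acinar sums, whose part was not tested. H1f0 had 20.03, 20.91 and 26.30 FPKM in controls, a range that holds the 21.95 of busulfan replicate 3. H2afx and H1fx had log2 differences of -0.59 and -1.23 in busulfan with L.J. minus busulfan (limma adjusted p = 0.0715 and 0.0688).

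**Figure D5:**
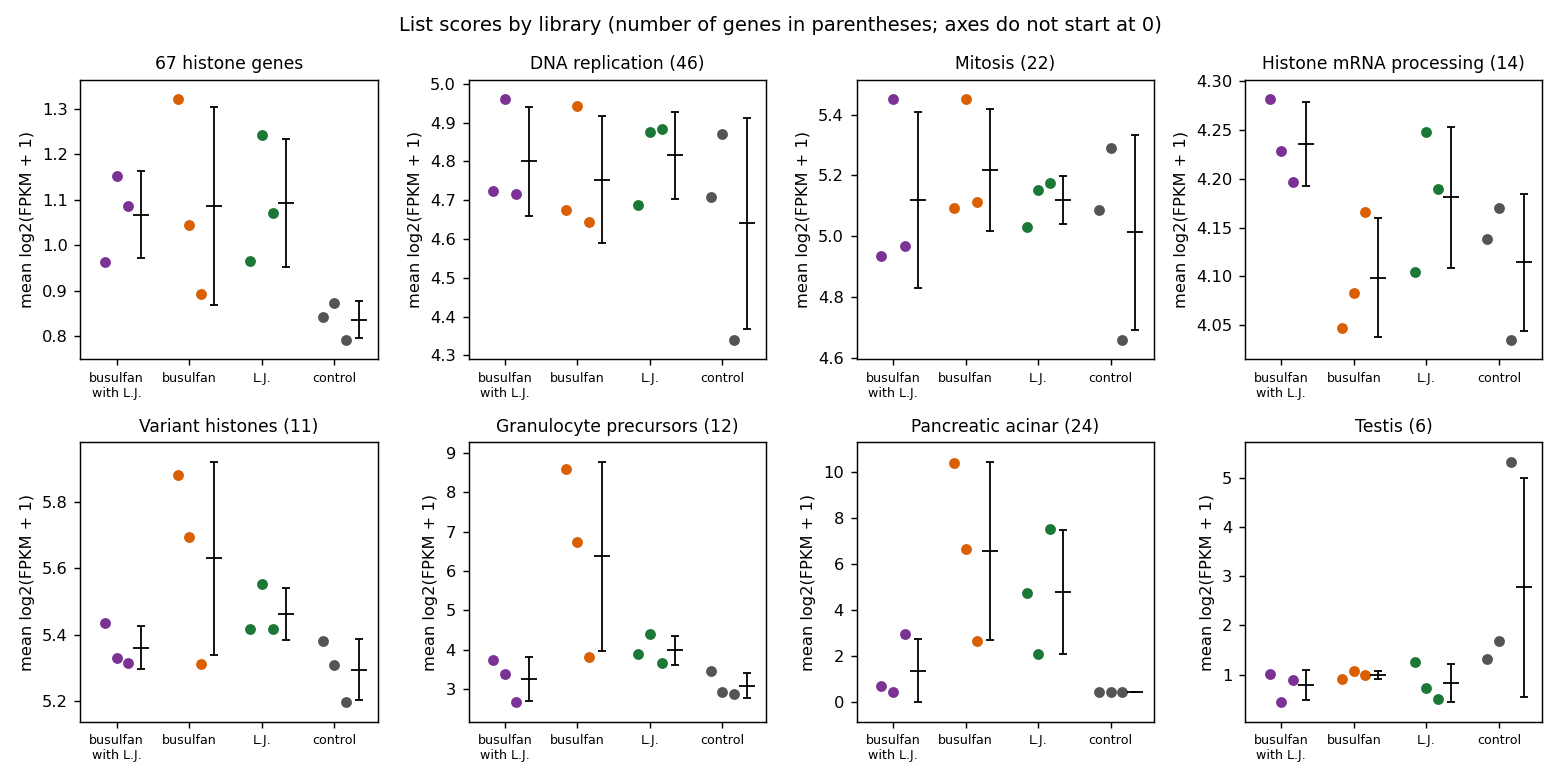
Mean log2(FPKM + 1) of gene lists in the 3 libraries of each group (points), with the mean and SD of the group as a bar. The histone score lies between 0.792 and 0.873 in controls and between 0.893 and 1.322 elsewhere, granulocyte precursor and acinar scores are highest in busulfan replicate 1, and the testis score is highest in control replicate 3.

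The tested genes most like the mean log2(FPKM + 1) of the 26 tested histone genes over the 12 libraries were Cdc20 with Pearson r of 0.933, Rpl36 with 0.930, Cox6c with 0.926, Mob2 with 0.925 and Tube1 with 0.919. They were followed by Atp5mpl with 0.917, Tbcb with 0.913, Mrps14 and Strap with 0.907 and Ifrd1 with 0.904. Cdc20 activates the anaphase-promoting complex in mitosis, and Rpl36 and Mrps14 encode ribosomal proteins of the cytosol and of mitochondria. These are the highest of all tested genes and are given as a description, since libraries share depth and composition.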

How the data were processed

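The deposited table holds 1 FPKM value per gene and library, made by the authors, with 2 decimals, per the file headers. Bowtie 0.12.2 and the build mm10 are listed, without a role, per the submitters' processing notes. How reads were counted, with which annotation, and how copies of a gene shared them is not given in the sources used here. Columns were matched to samples by name, and groups and replicate numbers came from the labels. Steps of whole fragments were sought in the FPKM values of 1677 sparse genes, but at most 34.8% came out whole within 0.1, so depth is unknown and no count test was run.

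FPKM was used as log2(FPKM + 1). The 13138 genes that reached a group mean of 1 FPKM in 1 group or more were fitted with limma 3.58.1 in R 4.3.3 (trend, robust, 1 mean per group, 12 libraries), and 6 contrasts were adjusted by Benjamini-Hochberg at 0.05. A fit without the filter gave the directions of all 67 genes. The script was checked on simulated data. Genes were named by a rule, namely the 12 of highest mean, the 4 of smallest p in each contrast, all H1 and testis-type members and a fixed set of other genes. Hist1h2ad and the genes called under single alternatives were named after their values were seen. Others, such as H1fx and Prm2 from the lists, were also named outside this rule. The members and all lists were chosen with earlier results of these data known. All 67 members matched RefSeq genes (GRCm38.p6) by gene number, which gave coordinates and promoters. Transcripts and shared runs of 50 bases came from GENCODE M21 on the same assembly. Software was Python 3.11.15 with matplotlib 3.10.9, numpy 2.4.6 and pandas 2.3.3. Alternatives were other scalings, library weights, filters, pseudocounts, the groups compared alone, a replicate block and leaving out libraries. Those that concern the direction of all 67 genes were added after seeing the data.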

Additional observations from a re-analysis of the deposited data

Results flagged for a closer look

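Hist1h4i, an H4 gene, was higher than control in all 3 busulfan libraries and lower than L.J. alone in all 3 libraries of busulfan with L.J., so the difference between libraries with and without busulfan had opposite signs without and with L.J. The interaction was -1.8115 on the log2(FPKM + 1) scale (limma adjusted p = 0.213) and missed the threshold. It passed with library weights, at an adjusted p of 0.0441, and without busulfan replicate 3, at 0.0140, fits in which 220 of 13138 and 511 of 13214 genes passed, against 0 in the reported fit, and ran up to 0.400 over the alternatives. Hist1h4i shares 28.9% of its 50-base runs with other genes. Hist1h4i stood at 8.92, 5.08 and 2.57 FPKM in the busulfan libraries. Their granulocyte precursor scores (mean log2(FPKM + 1)) were 8.577, 6.725 and 3.817, and their acinar scores were 10.392, 6.624 and 2.623. In the L.J. libraries Hist1h4i stood at 4.57, 8.87 and 4.15 FPKM. There the granulocyte precursor scores were 3.896, 4.393 and 3.674, and the acinar scores 4.722, 2.072 and 7.492. The part of such cells or tissue in the difference was not tested.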

How the results depend on the processing

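The number of histone genes that passed was 0 in every contrast, and most alternatives left it there (141 of 150 values). For busulfan with L.J. minus busulfan it was 2 with library sums taken without acinar and globin genes and 3 with library weights, and for busulfan with L.J. minus control it was 3 with library weights and 2 with only the groups compared. For the interaction it was 1 with library weights. All genes were also called more often in these 5 fits, at 6.04%, 15.1%, 11.3%, 5.81% and 1.67%. Leaving out each library in turn gave 0 to 5 for busulfan minus control, 0 to 2 for busulfan with L.J. minus busulfan and 0 to 2 for the interaction, and 0 in the other contrasts. The 5 and the 2 of the interaction came without busulfan replicate 3, and the other 2 without busulfan replicate 1 or 3. The median log2 difference of the tested histone genes is given next, but the genes tested changed between fits. There were 26 in the reported fit, 9 at a mean of at least 5 FPKM and 67 without the filter. With 1 library left out there were 25 to 31, so these medians are not all of the same genes. For busulfan minus control the median was 0.31, and 0.0406 under a filter at a mean of 5 FPKM. It was 0.5119 and 0.1523 with pseudocounts of 0.1 and 5, and 0.1797 with library weights. Without the 3 libraries of high acinar level it was 0.1244. With 1 library left out it ran from 0.0872 (without control replicate 3) to 0.5291. For L.J. minus control it was 0.38, with 0.5683 and 0.1871 at pseudocounts of 0.1 and 5 and 0.2312 without the filter. For busulfan with L.J. minus control it was 0.28, with 0.5304 at a mean of at least 5 FPKM, 0.4399 and 0.1002 at pseudocounts of 0.1 and 5, 0.1461 with library weights, and 0.0911 to 0.3119 with 1 library left out. For the interaction it was -0.50, with -0.2888 without the filter, -0.0093 at a mean of at least 5 FPKM, -0.7125 and -0.2042 at pseudocounts of 0.1 and 5, -0.2222 without the libraries of high acinar level, and -0.609 to -0.215 with 1 library left out. With 1 library left out it was -0.1952 to 0.0496 for busulfan with L.J. minus busulfan and -0.2293 to 0.1 for busulfan with L.J. minus L.J. Over all 13138 tested genes the median was -0.0268 for busulfan minus control, 0.0212 for L.J. minus control and 0.0426 for busulfan with L.J. minus control. It was 0.0477 for busulfan with L.J. minus busulfan, 0.0046 for busulfan with L.J. minus L.J. and 0.0243 for the interaction. The tested histone genes entered through their highest group, so their medians are a description only. Without the libraries of high acinar level 30 of 67 genes were higher for busulfan minus control and 49 for busulfan with L.J. minus busulfan, against 48 and 28, and busulfan replicate 3 is then the sole library of its group. The cause of these shifts was not tested. Whether the replicate numbers pair the libraries is not known. Deviations from the group means correlated from -0.3073 to 0.3255 in same-numbered pairs, with 8 of 18 above 0.1. In differently numbered pairs they correlated from -0.4013 to 0.3723, and these overlapping ranges cannot decide it. With the replicate block 0 histone genes passed in every contrast.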
